A study of Mus musculus with 70 samples.

Results

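The complement components and regulators described here are 9 mouse genes, C3, Cfb, C1ra, C2, C4b, Cfd, Serping1, Cd55 and Cd59a, followed through serial passage of RENCA renal carcinoma cells in mice. They were chosen by name: every array probe that is not a control and whose gene name or transcript accession belongs to a member was taken, which gave 12 probes of 55681 and 9 gene symbols of 21154. C3, C1ra and Serping1 had 2 probes each, and the brighter on average stood for the gene.

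Complement is a set of plasma proteins that tag and lyse cells. The classical pathway starts when C1q with the proteases C1r and C1s cleaves C4 and C2, the alternative pathway is amplified by factor B and factor D, and both lead to cleavage of C3, the central component. Cells limit this on their own surface with CD55 and CD59, and in fluid with the C1 inhibitor SERPING1. The liver makes most plasma complement, but fibroblasts, macrophages and many epithelial and tumour cells also transcribe these genes.

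RENCA is a renal adenocarcinoma line of BALB/c mice, and the cells carried eGFP from a lentivirus (GFP-RENCA). P0 is the line before any passage in mice and is shared by all routes. Cells were put under the capsule of the left kidney or into the tail vein of female wild-type BALB/c mice, 6 weeks old, and were recovered and injected again over 6 passages, P1 to P6. KPT denotes cells recovered from the kidney tumour, T-LM those from lung metastases after tail vein injection, and K-LM those from lung metastases after kidney injection. Per the methods, recovered tissue was digested and cultured for about 2 weeks until cells without GFP were no longer detected, whereas the labels name tumours and metastases as the source and a tissue homogeniser for RNA extraction. The labels name no treatment. The 65 RNA samples comprised 2 of P0 and, from P1 to P6, 5, 2, 2, 3, 5 and 5 of KPT, 5, 2, 3, 4, 6 and 4 of T-LM, and 1, 1, 5, 3, 4 and 3 of K-LM. The labels do not tie samples to separate mice, so p-values measure the spread between these samples only.

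A level is the log2 of a spot's processed signal minus the 75th percentile of its array, so 0 marks a probe as bright as that percentile of commonly detected probes. Levels describe one probe across samples and do not rank genes against each other. Between 25.3% and 55.3% of probes per array passed the scanner software's test of signal well above background, with a median of 33.0%. A gene is called detected or below detection here by that test. On 70 arrays, 0 of the 840 member values were saturated. All 3 K-LM P6 samples lay on a slide scanned later, together with repeat arrays of both P0 samples and of KPT P6 replicates 1, 2 and 4. Between the repeat and the earlier arrays of these 5 RNA samples, C3 differed by -0.23 to 0.11, Cfb by -1.08 to 0.06, C4b by -1.30 to 0.09, Serping1 by -0.93 to 0.34 and C1ra by -0.17 to 0.74 in log2. The range was -0.19 to 0.19 for C2, -0.41 to 0.96 for Cd55, -0.38 to 0.55 for Cd59a and -1.295 to 1.97 for Cfd. A change is called where its limma p, adjusted by the method of Benjamini and Hochberg, is at most 0.01, fitted over all probes detected on at least 2 arrays of the fit. Values beside a change as "± SE" are standard errors.

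Of 8 epithelial genes taken as renal markers, the keratins Krt8 and Krt18 and Pax8 were well above background in 65 of 65 samples. Cubn was so in 35, Cdh16 in 21, Epcam in 5, and Lrp2 and Pax2 in 0. Marker genes of other cell types were present as well. The linear levels of 8 fibroblast genes (Col1a1, Col1a2, Col3a1, Pdgfra, Pdgfrb, Dcn, Lum and Thy1) summed to 0.0336 to 0.038 in P0, to 0.958 to 2.96 in K-LM P6, to 1.98 to 6.74 in T-LM P6 and to 0.489 to 1.11 in KPT P6. At P1 the single K-LM sample had 18.9, and the highest of 5 samples each had 15.9 in T-LM and 10.9 in KPT. In bulk RNA a larger number of cells of a type and more RNA per cell cannot be told apart, nor can transcription in carcinoma cells from that in other cells of a culture.

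C3, C1ra, C2 and Cd59a were well above background in 65 of 65 RNA samples. Serping1 was detected in 55, C4b in 46, Cfb in 35, Cd55 in 25 and Cfd in 6. Over all samples Cfb spanned levels of -8.96 to -1.78 with a median of -6.28, and C4b spanned -8.85 to -1.18 with a median of -5.10. The range was also wide for Serping1, at -8.56 to -1.20, and for C3, at -4.25 to 2.14. C1ra stayed between -4.04 and -1.06, C2 between -2.23 and 0.46 and Cd59a between -4.63 and -2.42. The plot of levels by passage shows that the genes did not share a single course. Cfb, C4b and Serping1 were low in P0 and P3 and high in P6 of both lung routes, whereas C3 was high in P0, P1, K-LM P4 and K-LM P6 and lowest in KPT P5. In KPT P6 the means of Cfb (-6.72) and C4b (-5.28) lay below their medians over all samples.

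**Figure D1:**
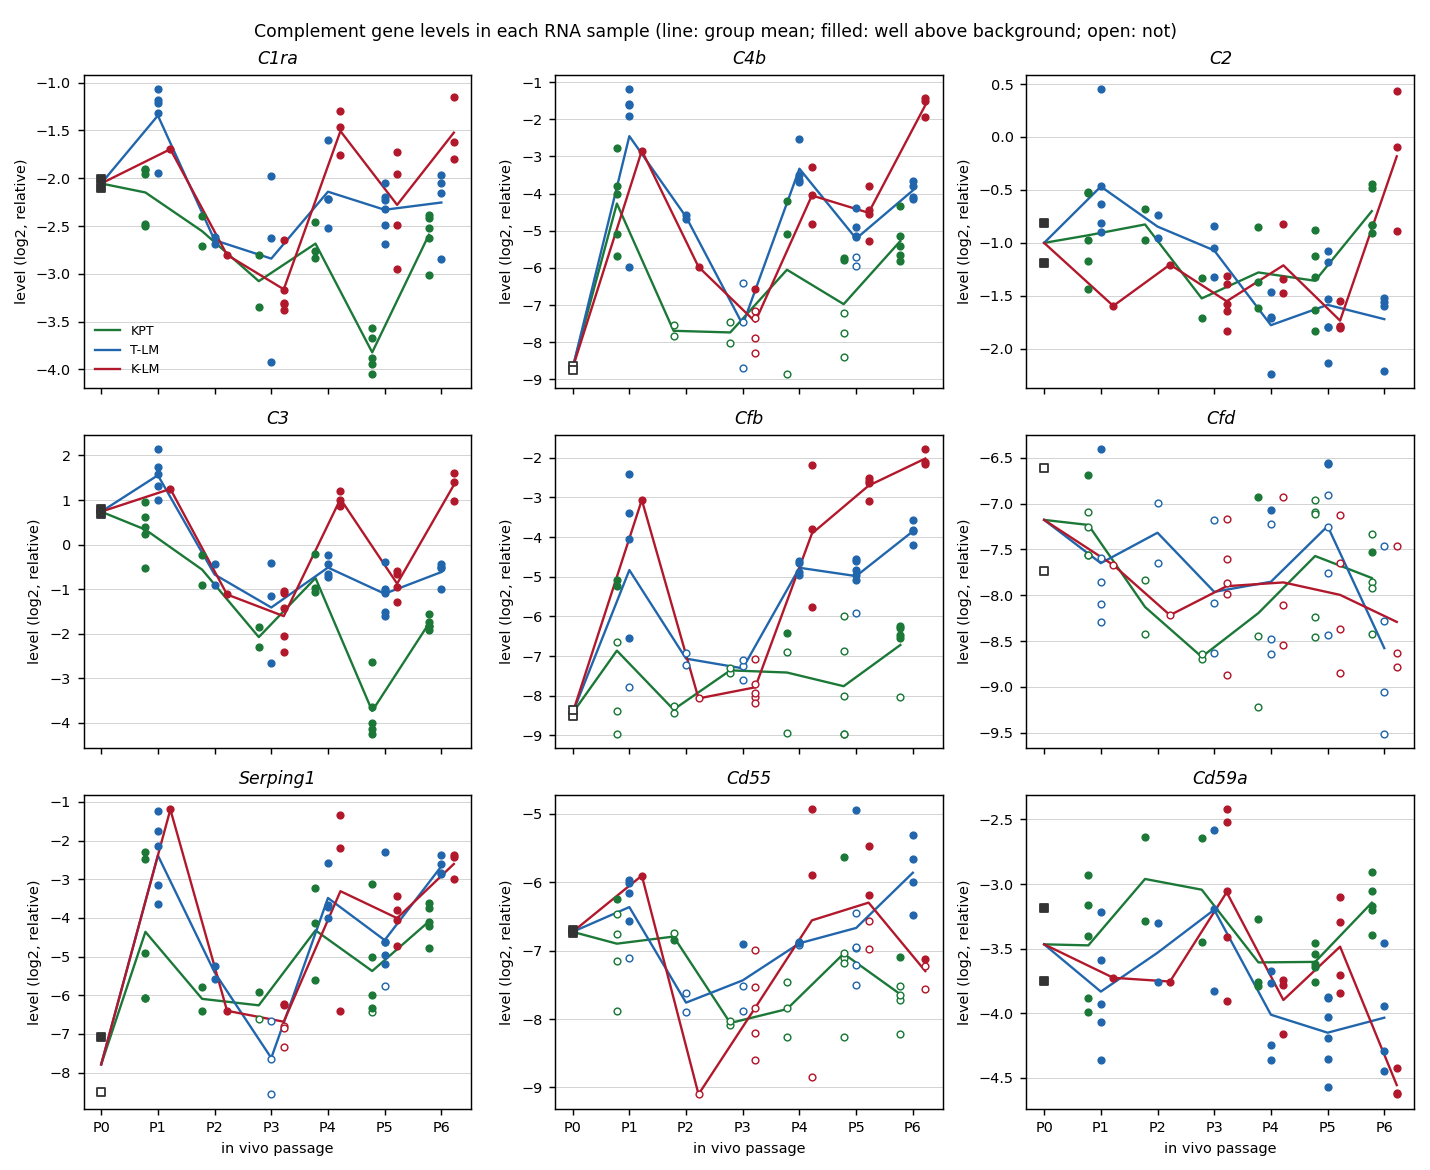
Level (log2 relative to the 75th percentile of the array) of each of the 9 complement genes in every RNA sample by passage, with routes in colour and P0 shown once; filled points were well above background and open points were not. Cfb was not detected in P0 or P3 of any route and reached -1.78 in K-LM P6, while Cd59a stayed between -4.63 and -2.42.

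Among the classical pathway genes, C4b, which encodes the fourth component, was undetected in the parental line. Its levels were -8.63 and -8.76 in the P0 samples, both not well above background. In KPT P6 replicates 1 to 5 they were -5.66, -5.15, -4.33, -5.42 and -5.83. T-LM P6 replicates 1 to 4 had -3.79, -4.14, -3.66 and -4.08. K-LM P6 replicates 1 to 3 had -1.51, -1.43 and -1.93. Every P6 sample was above both P0 samples, and the 3 routes did not overlap at P6, with KPT lowest and K-LM highest. From P0 to P6, C4b rose by 7.26 ± 0.50 SE in K-LM (limma adjusted p = 3.44e-10, at least 38.7-fold) and by 4.47 ± 0.48 SE in T-LM (limma adjusted p = 2.28e-06, at least 7.88-fold). In KPT the change was 3.17 ± 0.92 SE with a limma adjusted p of 0.0503, which did not pass, and it passed in 6 of the alternative settings. A bound is given because P0 was below detection: the dim group is raised to the lowest detected signal of each array. C4b shares most of its sequence with C4a, which had no matched probe, so its signal may hold both.

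C4b did not rise steadily. It was already well above background in 5 of 5 KPT P1 samples, from -5.68 to -2.76. T-LM P1 replicates 2 to 5 had -1.62, -1.58, -1.18 and -1.91, while the sample placed there from its other labels, replicate 6, had -5.98. By P3 it was below detection in 4 of 5 K-LM, 3 of 3 T-LM and 2 of 2 KPT samples, and it returned in P4 to P6. From P0 to P1 the rise was 5.94 ± 0.83 SE in T-LM (limma adjusted p = 1.34e-04, at least 21.7-fold) and 4.12 ± 0.93 SE in KPT (limma adjusted p = 0.00714, at least 6.17-fold). The KPT call was lost without P0 replicate 1 (adjusted p = 0.105), P0 replicate 2 (adjusted p = 0.06), or KPT P1 replicate 3, 4 or 5 (adjusted p = 0.0143, 0.0159 and 0.0157).

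C2, which encodes the protease that joins C4b in the classical C3 convertase, moved little and in different directions by route. Its mean level was -1.0 ± 0.26 (SD, n = 2) in P0, -0.70 ± 0.22 (SD, n = 5) in KPT P6, -1.72 ± 0.33 (SD, n = 4) in T-LM P6 and -0.18 ± 0.67 (SD, n = 3) in K-LM P6. From P0 to P6 no route passed the test, with changes of 0.84 ± 0.27 SE in K-LM (limma adjusted p = 0.0477) and -0.72 ± 0.29 SE in T-LM (adjusted p = 0.137). Without K-LM P6 replicate 3, the K-LM change was 1.19 and passed (adjusted p = 0.00283). From P1 to P6 in T-LM it fell by 1.25 ± 0.26 SE (limma adjusted p = 0.00176), a call lost without T-LM P6 replicate 2 (adjusted p = 0.0117).

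C1ra, a C1r protease gene, was highest in T-LM P1, at -1.34 ± 0.35 (SD, n = 5), and lowest in KPT P5, at -3.82 ± 0.20 (SD, n = 5). Its mean was -2.05 in P0, -2.59 in KPT P6, -2.25 in T-LM P6 and -1.52 in K-LM P6, and none of the P0 to P6 changes passed. With this probe P3 to P6 in K-LM was the only change between passages that was called, as given below. The other C1ra probe was called there as well and was also called lower from P1 to P6 in KPT (-0.557 ± 0.145 SE, limma adjusted p = 0.00898). Its sequence is close to that of C1rb, so the level may include that gene.

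C3, the central component, followed another course. P0 had levels of 0.80 and 0.68. In KPT P6 they were -1.82, -1.55, -1.74, -1.83 and -1.92 for replicates 1 to 5. T-LM P6 had -1.01, -0.51, -0.43 and -0.53, and K-LM P6 had 1.41, 1.62 and 0.99. Both P0 samples were thus above all KPT and T-LM samples of P6 and below all K-LM ones. C3 fell 5.47-fold from P0 to P6 in KPT (-2.45 ± 0.35 SE in log2, limma adjusted p = 1.93e-04). The difference was -1.32 ± 0.42 SE in T-LM (limma adjusted p = 0.0463) and 0.61 ± 0.29 SE in K-LM (adjusted p = 0.233), and neither passed. The T-LM difference passed when scaled on all probes (adjusted p = 0.00624) and when only P0 and P6 were fitted (adjusted p = 0.00132).

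Between these ends C3 varied widely. It peaked in T-LM P1 at 1.56 ± 0.43 (SD, n = 5), and it was lowest in KPT P5, where the samples had -4.25, -4.01, -2.63, -3.65 and -4.15. From P1 to P6 it fell by 2.08 ± 0.29 SE in KPT (limma adjusted p = 4.2e-05) and by 2.17 ± 0.32 SE in T-LM (limma adjusted p = 6.23e-05). In K-LM it went from -1.61 ± 0.60 (SD, n = 5) at P3 to 1.02 ± 0.17 (SD, n = 3) at P4, -0.88 ± 0.32 (SD, n = 4) at P5 and 1.34 ± 0.32 (SD, n = 3) at P6.

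Of the alternative pathway genes, Cfb encodes factor B, which supplies the catalytic subunit of the alternative C3 convertase. In P0 its levels were -8.50 and -8.37, both below detection. KPT P6 had -6.48, -6.28, -6.24 and -6.55 in replicates 1 to 4 and -8.04, below detection, in replicate 5. T-LM P6 had -4.19, -3.82, -3.57 and -3.84, and K-LM P6 had -2.11, -1.78 and -2.16. The order was again KPT, T-LM, K-LM without overlap. Cfb rose from P0 to P6 by 6.55 ± 0.62 SE in K-LM (limma adjusted p = 5.95e-08, at least 29.4-fold) and by 4.24 ± 0.30 SE in T-LM (limma adjusted p = 1.22e-08, at least 8.22-fold). The KPT change of 1.40 ± 0.76 SE had a limma adjusted p of 0.354, and it turned negative (-0.22) when dim spots were raised to the detection floor. No fold is given for it, since replicate 5 was below detection too. It passed on the late slide alone (2.29, adjusted p = 5.44e-05) and with P0 and P6 fitted by themselves (1.75, adjusted p = 0.00363).

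Cfb was below detection in every P2 and P3 sample: 1 of K-LM, 2 of T-LM and 2 of KPT at P2, and 5, 3 and 2 at P3. It was nonetheless detected at P1 in 2 of 5 KPT samples (-5.09 and -5.23), in 4 of 5 T-LM samples (-2.40 to -6.54) and in the single K-LM sample (-3.06). In K-LM it rose again by P4, with -5.77, -2.17 and -3.79, and in P5 it lay between -3.08 and -2.51. T-LM P4 was narrow at -4.77 ± 0.16 (SD, n = 4). It was well above background in 1 of 3 KPT P4 and 0 of 5 KPT P5 samples.

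Cfd, the factor D (adipsin) gene, was well above background in 6 of 65 samples. Its group means lay between -8.67 and -7.18, and at P6 it was detected in 0 of 3 K-LM, 0 of 4 T-LM and 1 of 5 KPT samples. No direction is given for it.

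Among the regulators, Serping1, the C1 inhibitor gene, rose in all 3 routes. P0 replicate 1 had -7.08, above background, and replicate 2 had -8.50, below it. KPT P6 had -4.22, -3.62, -3.75, -4.11 and -4.77, T-LM P6 had -2.37, -2.86, -2.60 and -2.83, and K-LM P6 had -2.999, -2.43 and -2.39. All 12 P6 samples were above both P0 samples, and T-LM and K-LM overlapped. The changes from P0 were 5.24 ± 0.82 SE in K-LM (limma adjusted p = 8.57e-05), 4.98 ± 0.67 SE in T-LM (limma adjusted p = 3.45e-05) and 3.56 ± 0.73 SE in KPT (limma adjusted p = 0.0049). The KPT call was lost without P0 replicate 1 (adjusted p = 0.0357), P0 replicate 2 (adjusted p = 0.108) or KPT P6 replicate 2, 3 or 4 (adjusted p = 0.0109 to 0.0124), and with the other Serping1 probe (adjusted p = 0.027). Serping1 was high at P1 too, with a rise of 5.26 ± 0.69 SE from P0 in T-LM (limma adjusted p = 8.75e-05), lost without P0 replicate 2 (adjusted p = 0.0101). The single K-LM P1 sample had its highest level of all, -1.20.

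The membrane regulators differed from Serping1. Cd55, which speeds the decay of C3 convertases, was detected in 2 of 2 P0 samples (-6.75 and -6.70) and in 4 of 4 T-LM P6 samples (-5.31, -5.65, -6.00 and -6.48). It was detected in 1 of 5 KPT P6 and 1 of 3 K-LM P6 samples. None of its P0 to P6 changes passed. Cd55b is close to it in sequence, and the array cannot be assumed to separate them.

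Cd59a, which blocks the membrane attack complex, was detected everywhere and had the narrowest range of the 9. It was -3.18 and -3.75 in P0, and its mean was -3.14 ± 0.18 (SD, n = 5) in KPT P6, -4.04 ± 0.44 (SD, n = 4) in T-LM P6 and -4.56 ± 0.12 (SD, n = 3) in K-LM P6. The K-LM change from P0 of -1.18 ± 0.33 SE had a limma adjusted p of 0.0235. Within the late slide alone it was -1.30 and passed (adjusted p = 0.00177). The near copy Cd59b may contribute to its signal.

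Counted over the members, the P0 to P6 comparison called 2 of 8 tested in KPT (C3 lower, Serping1 higher), where 3.8% of all probes tested were called. In T-LM it called 3 of 9 (Cfb, C4b and Serping1, all higher), against 7.25% of all probes, and in K-LM the same 3 of 8, against 5.51%. The median member change was 0.72 in K-LM, 0.07 in T-LM and 0.43 in KPT, beside 0.01, 0.01 and -0.02 over all probes tested. These comparisons share the P0 samples. The study's K-LM signature, which includes CFB, was drawn in part from P0 to P6 changes in these arrays. The Cfb call in K-LM is therefore not independent of that selection. The plot of fitted differences shows the large rises of C4b, Cfb and Serping1 beside the small values of C1ra, C2, Cd55 and Cd59a.

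**Figure D2:**
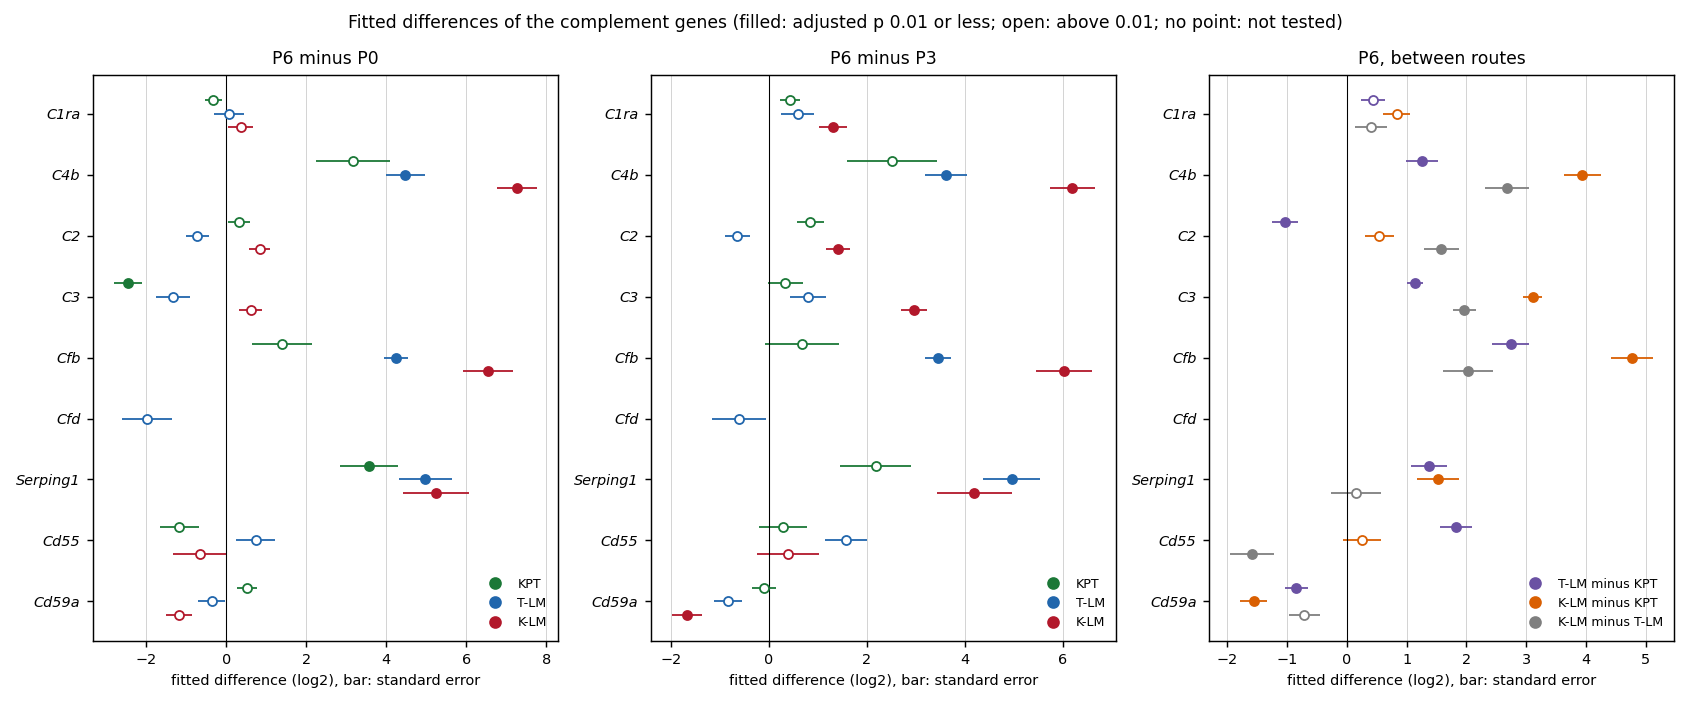
Fitted log2 differences with standard errors for the 9 genes, from P0 to P6, from P3 to P6 and between routes at P6; filled points had an adjusted p of 0.01 or less in limma, and a gene without a point was not tested. C4b and Cfb in K-LM lie farthest to the right, at 7.26 and 6.55 from P0, and Cd59a in K-LM lies left of 0 in each panel.

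The P3 to P6 comparison, on which the study ran its gene category enrichment, gave different counts by route. In K-LM 7 of 8 members passed, where 5.86% of all probes did. Those 1313 probes became 2555 when replicate 3 of K-LM P3 was dropped and 373 when replicate 2 of K-LM P6 was, while 6 to 7 members passed on leaving out single samples. With replicate number as a block, 5 members and 374 probes passed. Cfb, below detection in all 5 P3 samples (-8.19, -7.07, -8.04, -7.93 and -7.71), rose by 6.03 ± 0.57 SE (limma adjusted p = 3.79e-07, at least 24-fold). C4b, at -7.34, -6.56, -7.16, -8.30 and -7.88 in P3 and detected there only in replicate 2, rose by 6.20 ± 0.47 SE (limma adjusted p = 8.83e-09). C3, at -1.43, -1.09, -1.05, -2.42 and -2.05 in P3, rose 7.8-fold (2.96 ± 0.27 SE, limma adjusted p = 1.75e-07). The P3 and P6 samples did not overlap for 7 of 9 members, the 7 that were called. The matching share over all probes is not given here. Serping1 rose by 4.199 ± 0.76 SE (limma adjusted p = 0.00102), C2 by 1.41 ± 0.25 SE (adjusted p = 7.71e-04) and C1ra by 1.31 ± 0.29 SE (adjusted p = 0.00466), while Cd59a fell by 1.67 ± 0.31 SE (adjusted p = 0.0012). Cd55 was 0.38 higher with a limma adjusted p of 0.701. The C1ra call was lost without K-LM P6 replicate 1 (adjusted p = 0.0165) or 2 (adjusted p = 0.0335) or K-LM P3 replicate 5 (adjusted p = 0.0103). P3 and P6 of K-LM lay on different slides, a difference the fit measured on the 5 repeated RNA samples. Within the late slide, which also held P0, the K-LM P6 samples exceeded P0 by 6.76 for Cfb, 7.38 for C4b and 5.33 for Serping1.

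In T-LM, P3 to P6 called 3 of 9 members, against 7.05% of all probes. Cfb was below detection at P3 (-7.24, -7.60 and -7.09) and rose by 3.46 ± 0.27 SE (limma adjusted p = 8.71e-08, at least 7.65-fold). C4b (-8.70, -7.46 and -6.42 at P3) rose by 3.61 ± 0.43 SE (limma adjusted p = 1.33e-05, at least 6.89-fold), and Serping1 (-8.56, -7.65 and -6.65) by 4.96 ± 0.59 SE (adjusted p = 1.45e-05, at least 17.3-fold). These 3 genes were below detection in all 3 P3 samples and detected in all 4 P6 samples. C3 was 0.80 higher with a limma adjusted p of 0.17. In KPT, limma called 0 of 8, where 0.772% of all probes were called. An unadjusted limma p under 0.05 was found for 4726 of the 20983 probes tested. Of the 8 members, 3 had such a p: Serping1 (2.18 ± 0.73 SE, adjusted p = 0.0838), C4b (2.52, adjusted p = 0.113) and C2 (0.85, adjusted p = 0.0724). All 3 passed when only the KPT P3 and P6 samples were fitted, a setting that called 1635 of 20441 probes instead of 162 of 20983. Without KPT P3 replicate 2 the Cd59a difference, not called in either case, turned from below 0 to 0.30.

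From P0 to P1, C4b alone was called of 9 members in KPT, where 4.5% of all probes were, and C4b and Serping1 were called in T-LM, against 2.71%. From P1 to P6 the called members all fell: C3 in KPT (1 of 9, a share near the 11.7% of all probes) and C3 and C2 in T-LM (2 of 9, against 9.08%). Most called probes fell as well, 1572 of 2579 in KPT and 1264 of 2132 in T-LM. K-LM had 1 sample at P1 and was not tested there.

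At P6 the routes were compared directly, in a single fit with P0 and the repeat arrays. T-LM against KPT called 7 of 8 members (11.3% of all probes), K-LM against KPT 5 of 8 (15.4%) and K-LM against T-LM 5 of 8 (11.8%). The median member difference was 1.201, 1.18 and 0.99, beside 0.01, 0.01 and -0.02 over all probes. Within this fit P0 is common to the routes, so these are also the differences between their changes from P0. The changes from P0 given above came from separate fits per route, and their differences need not equal these values.

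Cfb, C4b and C3 were ordered KPT, T-LM, K-LM at P6 and differed at each step. For Cfb, T-LM exceeded KPT by 2.74 ± 0.31 SE (limma adjusted p = 4.04e-06) and K-LM exceeded T-LM by 2.03 ± 0.42 SE (limma adjusted p = 0.00211). For C4b the steps were 1.26 (limma adjusted p = 0.00228) and 2.68 ± 0.36 SE (adjusted p = 5.11e-05). For C3 they were 1.14 ± 0.14 SE (limma adjusted p = 8.22e-06) and 1.97 ± 0.19 SE (adjusted p = 1.2e-06). From KPT to K-LM the whole span was 4.77 for Cfb, 3.94 for C4b and 3.11 for C3, and within the late slide alone it was 4.47, 3.89 and 3.12. The step of C4b from KPT to T-LM was lost without KPT P6 replicate 4 (adjusted p = 0.0116) or T-LM P6 replicate 3 (adjusted p = 0.0104), and that of Cfb from T-LM to K-LM without K-LM P6 replicate 2 (adjusted p = 0.0102). In a model of all passages at once, the step from KPT to T-LM was lost for C4b (adjusted p = 0.382) and C3 (adjusted p = 0.0141), and the step from T-LM to K-LM for Cfb (adjusted p = 0.148) and C4b (adjusted p = 0.0387). That model also lost T-LM against KPT for Serping1 (adjusted p = 0.359), Cd59a (adjusted p = 0.0444) and Cd55 (adjusted p above the threshold by less than rounding shows), K-LM against KPT for Serping1 (adjusted p = 0.26) and K-LM against T-LM for Cd55 (adjusted p = 0.0968), all described next.

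Serping1 separated KPT from the lung routes, by 1.37 in T-LM (limma adjusted p = 0.00351) and 1.53 in K-LM (adjusted p = 0.00413), and T-LM and K-LM were not told apart. Both calls were lost without KPT P6 replicate 1 or 4, the former also without T-LM P6 replicate 1 or 3 and the latter without K-LM P6 replicate 2 or 3 (adjusted p = 0.0109 to 0.0209). Cd59a ran the other way and was lower than in KPT by 0.85 in T-LM (adjusted p = 0.00418), lost without KPT P6 replicate 1, 2 or 4 or T-LM P6 replicate 3 or 4 (adjusted p = 0.0101 to 0.0216), and by 1.56 in K-LM (adjusted p = 7.4e-05). Cd55 was higher in T-LM than in KPT by 1.83 (adjusted p = 7.96e-05) and lower in K-LM than in T-LM by 1.58 (adjusted p = 0.00515), the latter lost without T-LM P6 replicate 1 or 2 or any single K-LM P6 sample (adjusted p = 0.0113 to 0.0181). C2 was lower in T-LM than in KPT by 1.03 (adjusted p = 0.00178) and higher in K-LM than in T-LM by 1.58 (adjusted p = 8.68e-04). Against KPT it was called higher in K-LM when K-LM P6 replicate 3 was left out (0.90, adjusted p = 0.00792). C1ra, 0.83 higher in K-LM than in KPT, did not pass with its brighter probe (adjusted p = 0.0116) and passed with the other (1.04, adjusted p = 7.31e-04). The brighter probe passed with normexp, deposited values, only the compared groups, slide as a random block, or no term for the late slide. All p values here are limma adjusted.

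Markers of other cell types are set beside these genes in the plot of members and markers. The fibroblast sum was low at P0 and P3 (0.204 to 0.493 in K-LM P3, 0.121 to 0.542 in T-LM P3 and 0.185 to 0.215 in KPT P3) and higher at P6. From P0 to P6, limma called 6 of the 8 genes higher in T-LM, led by Col1a1 (7.56), Dcn (7.36), Col1a2 (7.32) and Col3a1 (5.51). It called 5 of 8 higher in K-LM, led by Dcn (6.29), Col1a2 (6.15), Col1a1 (6.12) and Thy1 (at least 12-fold). In KPT it called 2 of 7, Dcn (5.29) and Pdgfrb (at least 8.48-fold). At P6 Lum was detected in 0 of 3 K-LM, 4 of 4 T-LM and 1 of 5 KPT samples. Pdgfra was detected in 1 of 3, 3 of 4 and 0 of 5. Col1a1, Col1a2 and Dcn made up much of the sum at P6. The order of the routes was not the same: the fibroblast sum at P6 was 1.98 to 6.74 in T-LM and 0.958 to 2.96 in K-LM, where Cfb, C4b and C3 were higher. The part of these cells in the result was not tested.

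The 10 macrophage and leukocyte genes (Ptprc, Adgre1, Csf1r, Cd68, Itgam, Lyz2, Fcgr1, Cd14, Mrc1 and Tyrobp) summed to 2.2 to 2.51 in P0, 2.46 to 3.58 in K-LM P6, 3.07 to 3.42 in T-LM P6 and 3.05 to 4.23 in KPT P6. Cd68 was well above background in P0 and made up much of the sum. The defining genes Ptprc, Adgre1 and Tyrobp were below detection in 3 of 3 K-LM P6 samples, where Cfb and C4b were highest. Fcgr1 and Mrc1 were below detection there too. Csf1r, Cd68, Itgam, Lyz2 and Cd14 of the same list were detected in 3 of 3 of these samples. Those genes were also detected in every sample of P0, T-LM P6 and KPT P6. In T-LM P6 Tyrobp was detected in 4 of 4 samples, and Ptprc and Adgre1 in 2 of 4. In KPT P6, where Cfb and C4b were lowest of the routes, Tyrobp and Ptprc were detected in 4 of 5 samples each and Adgre1 in 0. From P0 to P6, limma called 3 of 9 of these genes in T-LM, Tyrobp (at least 21.6-fold higher), Cd14 (2.03 higher) and Ptprc (adjusted p = 0.00798), while the KPT and K-LM values did not pass. Of 5 lung epithelial genes, Sftpc, a surfactant gene, was called higher in T-LM (at least 14.9-fold) and was detected in 1 of 5 KPT P6 and 0 of 3 K-LM P6 samples. Nkx2-1 of the same list was detected in 0 of 65 samples, Sftpa1 in 1 and Sftpb in 5. Scgb1a1, a secretory gene of airway epithelium, was detected in every P6 sample and called higher from P0 in K-LM (2.50) and KPT (1.29). Cdh16, a kidney cadherin, was the 1 renal epithelial gene called, in KPT (at least 4.08-fold higher). Of 4 hepatocyte genes, Alb and Apoa1 were below detection in 65 of 65 samples, while Ttr was detected in 2 and Serpina1a in 57. Of 5 endothelial genes only Kdr was detected in all 65. The part of leukocytes and of lung or kidney epithelium in these values was not tested.

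**Figure D3:**
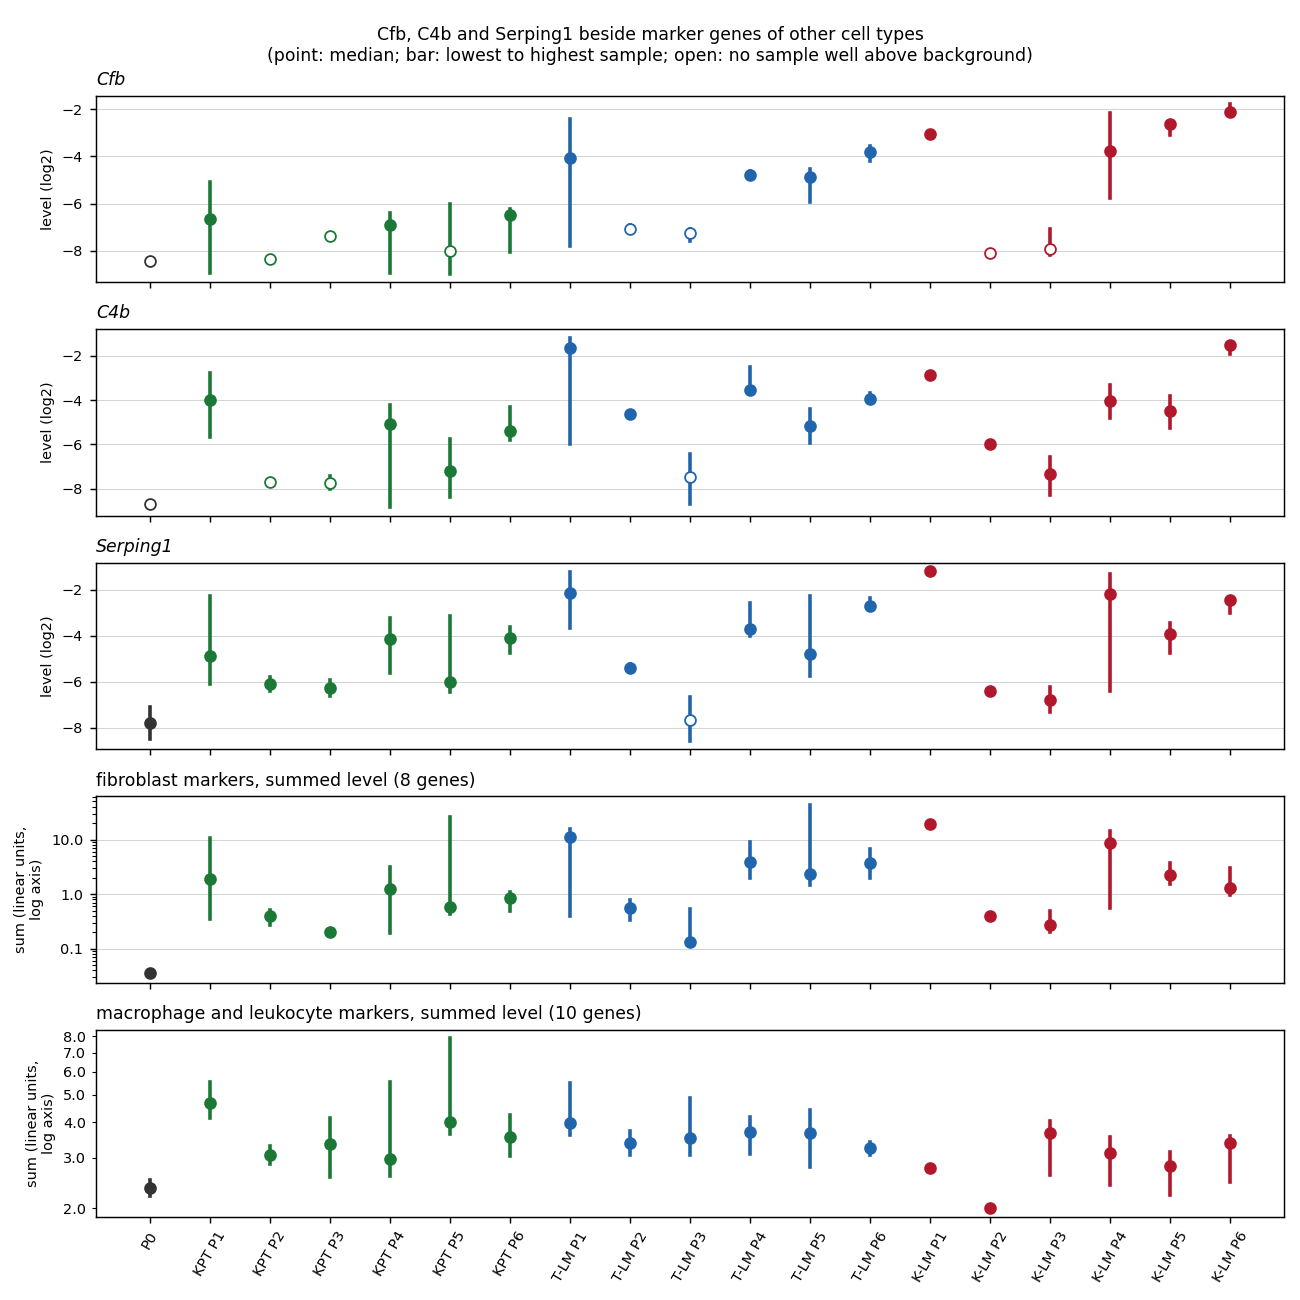
Levels of Cfb, C4b and Serping1 (log2, upper 3 panels) and summed linear levels of 8 fibroblast and 10 macrophage and leukocyte genes (lower 2 panels, log axis) for P0 and each route and passage; points are medians over RNA samples, bars run from the lowest to the highest sample, and open points mark groups with no sample well above background. Fibroblast sums rise from 0.0358 in P0 to medians of 1.32 in K-LM P6, 3.7 in T-LM P6 and 0.841 in KPT P6, while Cfb and C4b are highest in K-LM P6.

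The other complement genes were taken from a list of 51, of which 49 were on the array. From P0 to P6, 3 of 19 tested rose in K-LM (5.51% of all probes were called), 4 of 25 in T-LM (7.25%) and 3 of 23 in KPT (3.8%), and 0 fell. Itgb2, the beta chain of complement receptors 3 and 4, rose by 4.53 in T-LM (adjusted p = 4.9e-10) and 2.24 in K-LM (adjusted p = 0.00148). Cd93 rose at least 5.02-fold (adjusted p = 0.00143) and Hc, the C5 gene, at least 1.73-fold (adjusted p = 6.8e-04), both in T-LM and both below detection in P0. Cpn1, a carboxypeptidase that inactivates anaphylatoxins, was called higher in KPT (adjusted p = 0.00696, detected in 4 of 5 P6 samples) and K-LM (adjusted p = 0.0044, 1 of 3). Fcna, a ficolin of the lectin pathway, was called higher in KPT (adjusted p = 0.00219, detected in 4 of 5) and T-LM (adjusted p = 7.08e-04, 1 of 4). Both genes were below detection in P0 and in part of the P6 samples, so no fold is given. C8g rose by 1.22 in KPT and 1.40 in K-LM. The terminal pathway genes C7, C8a, C8b and C9 were below detection in all samples, as were Cfi, Vtn, Masp2, Mbl2, Cd46 and C5ar1.

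From P3 to P6, 0 of 23 genes of this list passed in KPT, where 0.772% of all probes did, 5 of 25 rose in T-LM (7.05% of all probes), and in K-LM 2 of 19 rose and 1 fell (5.86%). The K-LM calls were C1rb (2.08 higher) and C1s2 (0.96 higher), protease genes of the same C1 complex as C1ra, and C5ar2 (1.80 lower). At P6, T-LM exceeded KPT for 8 of 21 and was lower for 1, where 11.3% of all probes were called. K-LM was higher than KPT for 2 of 21 and lower for 1, a share near the 15.4% of all probes, and it was higher than T-LM for 1 and lower for 6, against 11.8%. The plot of further complement genes shows Itgb2, Cd93 and Hc highest in T-LM and C8g lowest there among the routes.

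**Figure D4:**
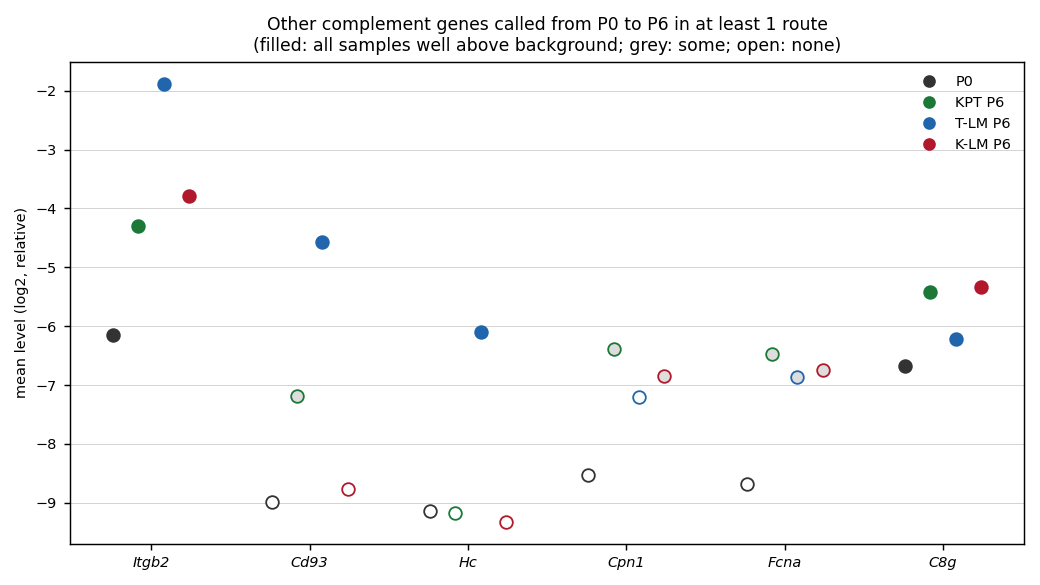
Mean level (log2 relative to the 75th percentile of the array) of Itgb2, Cd93, Hc, Cpn1, Fcna and C8g in P0 and in P6 of each route. Itgb2 rises from -6.16 in P0 to -1.88 in T-LM P6, its highest mean, and Hc is above background at P6 in T-LM alone, at -6.10.

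The genes whose levels were most like those of a member over the 65 samples, among 10082 candidate genes, are given by Pearson correlation as a description. The samples share passages, slides and the markers given above. C1ra was closest to C1rb (0.894) and C1s2 (0.853), and C3 to C1s2 (0.84) and Cp (0.83), the ceruloplasmin gene. C4b was closest to Gcnt2 (0.87), Socs3 (0.85) and Lrg1 (0.846). Cfb was closest to Mmp3 (0.848), Grem1 (0.844) and Rspo3 (0.827), and Serping1 to the collagen genes Col4a2 (0.862), Col6a1 (0.857) and Col4a1 (0.857). C2 was closest to Acpp (0.855) and Cd59a to Ndufaf7 (0.757). Members themselves were not candidates.

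C4b, Cfb, C2 and C3 lie on chromosome 17, C1ra on 6, Cfd on 10, Serping1 and Cd59a on 2, and Cd55 on 1. In the RefSeq gene order of GRCm38.p6, Cfb and C2 are neighbours with 0 protein-coding genes between them, and 5 lie between C4b and Cfb. In T-LM P6 C2 was lower than in KPT P6 while Cfb and C4b were higher, whereas all 3 were higher in K-LM P6 than in T-LM P6 and rose from P3 to P6 in K-LM.

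The RefSeq promoters of GRCm38.p6 held the 250 bases before the start of 5 members, C3, C1ra, Cfd, Cd55 and Cd59a. Cfb, C2, C4b and Serping1 are given by name only. The promoters of C3 and C1ra, which rose from P3 to P6 in K-LM, and of Cd59a, which fell, are printed 5′ to 3′ on the gene's strand and end at the base before the start. Capitals mark matches, on either strand, to NF-kB (GGG, any 5 bases, then CC), STAT (TTCNNNGAA), C/EBP (TTGCNNAA) or the interferon response element (ISRE; GAAA, any 2 bases, then GAAA). The C3 promoter is chr17:57228137-57228386 (minus strand), that of C1ra chr6:124512371-124512620 (plus strand) and that of Cd59a chr2:104095551-104095800 (plus strand).
C3: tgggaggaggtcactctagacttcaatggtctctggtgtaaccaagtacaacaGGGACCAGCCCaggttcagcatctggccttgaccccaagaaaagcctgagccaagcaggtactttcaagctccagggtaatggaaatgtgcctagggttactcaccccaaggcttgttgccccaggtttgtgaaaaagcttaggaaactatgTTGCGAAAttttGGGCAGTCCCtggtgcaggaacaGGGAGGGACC
C1ra: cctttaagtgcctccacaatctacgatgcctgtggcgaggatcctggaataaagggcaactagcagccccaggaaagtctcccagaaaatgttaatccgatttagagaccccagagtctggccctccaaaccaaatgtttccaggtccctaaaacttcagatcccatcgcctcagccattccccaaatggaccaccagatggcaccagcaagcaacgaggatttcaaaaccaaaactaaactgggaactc
Cd59a: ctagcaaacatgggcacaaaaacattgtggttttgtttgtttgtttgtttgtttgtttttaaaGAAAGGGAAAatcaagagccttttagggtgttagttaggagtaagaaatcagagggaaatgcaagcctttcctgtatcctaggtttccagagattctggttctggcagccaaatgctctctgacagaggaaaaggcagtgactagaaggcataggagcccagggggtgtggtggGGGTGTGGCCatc

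In C3 the NF-kB letters matched 197 to 188, 196 to 187, 33 to 24 and 10 to 1 bases before the start, the first pair overlapping, and the C/EBP letters 45 to 38 bases before it. C1ra had no match. Cd59a had an NF-kB match 13 to 4 bases and an ISRE match 187 to 178 bases before the start. Such letters are common: of 32851 promoters, 45.8% held the NF-kB pattern, 7.02% STAT, 9.56% C/EBP and 2.98% ISRE. A match is a description of the sequence and not a measured site.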

How the data were processed

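Single-colour Agilent arrays (Cy5) measured total RNA of 65 samples, grouped by the route and passage in their labels. A P1 sample whose title names no route was placed in T-LM from another label. The deposited scanner files hold spot intensity, of which the processed intensity had been background-subtracted by the scanner software. The deposited value table is on the log2 scale and matched quantile-normalised log2 median signals within 0.1055. The genome build behind the array design is not given in the sources used here.

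Control spots were left out, spots of a probe averaged (55681 probes), and log2 processed signals scaled to the 75th percentile of the 12219 probes well above background on all arrays. Names came from RefSeq accessions of GRCm38.p6 (28026 probes with a symbol, 27655 without). limma 3.58.1 (lmFit, eBayes, R 4.3.3, 2-sided) was fitted per route. K-LM and P6 fits held the repeat arrays, a late-slide term and RNA sample as random block (duplicateCorrelation, statmod 1.5.0, 2000 probes). The fits for KPT and T-LM passages used first arrays only, so a fitted change can differ from that of the mean levels, which average repeats. The procedure was tested on simulated data. Slide, scan day and software version of the late slide cannot be told apart. Precision is limited by the number of arrays.

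Members and gene lists were chosen with earlier results of these data known. All members are named, and 1 gene of the wider list is not reported here. Further complement genes are named where called from P0 to P6, up to 12 by size. Cell type markers are named where called from P0 to P6, up to 4 per list and route by size. They are also named where a defining marker was below detection. C1rb, C1s2, C5ar2, Sftpa1 and Sftpb, and the detection of Lum and Pdgfra, were given after their values were seen. Alternatives were other scaling, normexp (offset 50, on median signal) with quantile normalization, the deposited values, filters, a floor, other sample sets, slide and quality terms, a replicate block, leaving out each sample and other probes.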

Additional observations from a re-analysis of the deposited data

Results flagged for a closer look

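Within groups of 4 to 10 samples, 81 combinations of member and group were examined for a sample that stood apart, and 9 did. By chance about 1 in 20 would. In T-LM P1, replicate 6, the sample placed there without a route in its title, was lowest for C4b (-5.98, others -1.91 to -1.18) and C1ra (-1.95, others -1.32 to -1.06). In T-LM P6, replicate 1 was lowest for C3 (-1.01, others -0.53 to -0.43) and replicate 2 for C2 (-2.21, others -1.59 to -1.52). KPT P6 replicate 5 was lowest for Cfb (-8.04, others -6.55 to -6.24). The samples that stood apart at the high end were T-LM P5 replicate 1 for Serping1 (-2.29, others -5.76 to -4.63), T-LM P4 replicate 2 for C4b (-2.52, others -3.68 to -3.49), K-LM P3 replicate 3 for C1ra (-2.65, others -3.38 to -3.17) and K-LM P5 replicate 2 for C2 (-1.55, others -1.81 to -1.78).

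In the single fit of P6, the change from P0 differed between routes for 17 combinations, since P0 is common to them and the P6 levels differed in limma. These are the P6 comparisons given above and not further tests. T-LM minus KPT was 2.74 for Cfb, 1.83 for Cd55, 1.37 for Serping1, 1.26 for C4b, 1.14 for C3, -0.85 for Cd59a and -1.03 for C2. K-LM minus KPT was 4.77 for Cfb, 3.94 for C4b, 3.11 for C3, 1.53 for Serping1 and -1.56 for Cd59a. K-LM minus T-LM was 2.68 for C4b, 2.03 for Cfb, 1.97 for C3, 1.58 for C2 and -1.58 for Cd55.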

How the results depend on the processing

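Of 41 called changes of members, 25 stayed past the threshold under every alternative that could be fitted, 16 lost it under at least 1 and 0 reversed. All 41 held with the deposited values, with normexp and quantile normalization, with the stricter filter and with slide as a random block, and the 4 calls that use T-LM P1 held without its replicate 6. Calls over all probes moved with the settings too, and their number is given in brackets after each setting. Called members in P0 to P6 in KPT (2, with 797 probes) numbered 1 with a floor for dim spots (424). They numbered 1 with the share of detected probes as a covariate (357), 4 with only the compared groups (2710) and 4 on the late slide alone (1727). P3 to P6 in KPT (0, with 162 probes) gave 3 with only the compared groups (1635). P3 to P6 in K-LM (7, with 1313 probes) gave 6 with no filter (525) and 5 with the replicate block (374). P0 to P1 in KPT (1, with 992 probes) gave 0 with no filter (387), the floor (522), only the compared groups (232), the covariate (516) or the replicate block (436). It gave 2 in one model of all passages (959). P0 to P1 in T-LM (2, with 636 probes) gave 0 with only the compared groups (22). P1 to P6 in T-LM (2, with 2132 probes) gave 1 with only the compared groups (1145), scaling over all probes (2092) or the replicate block (1456). P6 T-LM against KPT (7, with 2492 probes) gave 2 in the model of all passages (675) and 4 with the replicate block (1885). K-LM against T-LM (5, with 2599 probes) gave 2 in that model (799).

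Leaving out single samples gave 1 to 2 called members for P0 to P6 in KPT, 3 to 3 in T-LM and 3 to 4 in K-LM. Calls over all probes ranged there from 362 to 696, from 683 to 1346 and from 620 to 988. For P3 to P6 it gave 0 to 0 in KPT (0 to 321 probes), 3 to 3 in T-LM (870 to 1871) and 6 to 7 in K-LM (373 to 2555). P0 to P1 gave 0 to 1 in KPT (140 to 1167 probes) and 1 to 3 in T-LM (62 to 1883). P1 to P6 gave 1 to 1 in KPT (1683 to 2281 probes) and 1 to 3 in T-LM (1278 to 2228). At P6, leaving out single samples gave 4 to 7 members for T-LM against KPT (1966 to 2319 probes). It gave 4 to 5 for K-LM against KPT (2064 to 3170) and 3 to 5 for K-LM against T-LM (1504 to 2485).

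Reversals were confined to uncalled differences. C1ra from P0 to P6 in T-LM (0.07) became -0.16 with scaling over all probes, -0.037 with normexp, -0.044 with deposited values, -0.033 in the model of all passages, -0.23 with the covariate, -0.18 with the replicate block, -0.017 with its other probe and -0.023 to 0.271 on leaving out single samples, reversing without T-LM P6 replicate 1. Cfb from P0 to P6 in KPT became -0.22 with the floor. Cd55 from P3 to P6 became -0.077, -0.10 and -0.41 in KPT and -0.004, -0.005 and -0.019 in K-LM with normexp, deposited values and the floor, and K-LM against KPT at P6 became -0.10 and -0.12 with the first pair. Cd59a from P3 to P6 in KPT ran from -0.505 to 0.301 on leaving out single samples, the latter without KPT P3 replicate 2. The cause was not tested. A model of only the compared groups could not be fitted for P3 to P6 in K-LM and K-LM against T-LM.

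Same-numbered samples did not deviate together (r of -0.38 to 0.25 over comparisons), so replicate numbers were not taken as pairs. The replicate block kept 32 of the 41 calls. The number of probes called in the whole table moved more: for P3 to P6 in KPT from 162 to between 0 and 1635, and for P0 to P1 in T-LM from 636 to between 22 and 1883. Leaving out single samples took P0 to P6 from 1234 to 620 at the lowest in K-LM, from 797 to 362 in KPT and from 1551 to 683 in T-LM, and P3 to P6 from 1507 to 870 in T-LM and from 1313 to between 373 and 2555 in K-LM. Scaling over all probes turned the share of higher calls in P0 to P1 in T-LM from 84.6% to 24.8%.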
